A study of Caenorhabditis elegans with 3 samples.

Results

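Binding of LIN-15B to the X chromosome of first-stage (L1) Caenorhabditis elegans larvae is described here through 261 peak regions, out of 30000 in the series-wide list. LIN-15B is a THAP-domain protein of the synMuv B group, nuclear proteins known for keeping germline genes silent in somatic cells of the larva. Chromatin immunoprecipitation followed by sequencing (ChIP-seq) was deposited as ranked peak lists for 3 replicates of 1 group, with no second condition and no control sample. All 3 replicates came from whole L1 larvae of strain OP184, of mixed sex, which carries the unc-119(tm4063) allele on chromosome III and the transgene wgIs184. The labels name eGFP-lin-15B as the target and a C-terminal GFP-FLAG tag, while the antibody is labelled lin-15B, so which form of the protein was precipitated cannot be told from them. For replicates 1 and 2 the labels give the stock centre CGC as the source and a fragment size range. For replicate 3 they give the laboratory of Michael Snyder and sonication with a microtip. The labels number the 3 as biological replicates, each with technical replicate number 1. No label says that they came from separate cultures. The p-values thus measure only the spread between these samples, part of which may be technical.

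Members were selected on peak strength. A member is an X peak of the series-wide list that is overlapped, by 1 bp or more, by a peak ranked 1 to 5000 by strength in at least 2 of the 3 replicate lists. Of 5647 listed X peaks outside the transgene locus, 261 met the rule, which is 4.62%. By the same rule 2207 of 24320 autosomal peaks passed, or 9.07%. These counts and every rank of a member describe what the rule chose and were given no test. The lin-15B gene is itself X-linked, and 7 more peaks met the rule within chrX:15715744-15745744, the locus of the gene carried by the transgene. They were counted apart. The strongest of them, with its summit at position 15725184, ranked 137, 128 and 99 in replicates 1, 2 and 3. Coordinates are on the ce11 (WBcel235) assembly and gene names follow Ensembl release 115.

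The X chromosome of C. elegans is known to be poor in genes that act in the germline and in many housekeeping genes, and rich in genes of neurons and muscle. In hermaphrodites a condensin-based dosage compensation complex binds both X chromosomes and lowers their transcription. That complex is loaded at recruitment sites on X, called rex sites, that carry copies of a motif named MEX. The motif contains the letters GCGCAGG, which are called the MEX-type heptamer here. Positions of rex sites were not used here, so no member was compared with them.

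The 261 members fell into 2 kinds that differed in place and sequence. There were 132 members with a summit in a promoter, counted from 500 bp upstream to 200 bp downstream of a protein-coding transcript start. The other 129 had no such start in reach. Windows of 6 promoter members are printed first, chosen after their sequences were seen to show what the short motifs look like. They are not the 6 strongest, and other strong members, among them those at serp-1.1, trap-2, sym-4 and rpl-11.2, hold none of the marked letters in windows of this size. Each reaches 50 bp to either side of the summit and is read 5′ to 3′ on the strand of the named gene. Capitals mark the GA-repeat hexamer GAGAGA or the GC-rich hexamer GAGCGC, on either strand, so TCTCTC and GCGCTC are capitalised too, and the motifs may share letters. The puf-9 window lies at chrX:5841256-5841356 and overlaps exons of the non-coding RNAs W06B11.7 and W06B11.9. The hsp-3 window lies at chrX:6092126-6092226, the F16B12.6 window at chrX:14102151-14102251 and the asb-2 window at chrX:4469449-4469549. The bet-2 window lies at chrX:10568995-10569095 and the ceh-39 window at chrX:1856355-1856455. None of the last 5 overlaps an annotated exon. The puf-9, F16B12.6, asb-2 and bet-2 windows are on the plus strand, and the hsp-3 and ceh-39 windows on the minus strand.
puf-9: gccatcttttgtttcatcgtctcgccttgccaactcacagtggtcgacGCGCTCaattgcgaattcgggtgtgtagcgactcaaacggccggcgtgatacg
hsp-3: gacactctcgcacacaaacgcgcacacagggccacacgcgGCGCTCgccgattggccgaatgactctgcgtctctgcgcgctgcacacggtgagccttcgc
F16B12.6: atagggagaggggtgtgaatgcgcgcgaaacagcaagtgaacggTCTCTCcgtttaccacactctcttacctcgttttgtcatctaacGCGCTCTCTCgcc
asb-2: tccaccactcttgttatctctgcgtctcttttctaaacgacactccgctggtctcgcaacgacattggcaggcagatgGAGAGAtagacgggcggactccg
bet-2: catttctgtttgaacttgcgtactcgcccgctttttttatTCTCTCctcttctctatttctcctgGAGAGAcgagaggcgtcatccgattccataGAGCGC
ceh-39: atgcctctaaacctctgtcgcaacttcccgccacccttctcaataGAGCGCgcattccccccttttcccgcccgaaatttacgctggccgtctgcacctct

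The members away from promoters are shown by 8 windows of 45 bp, because these hold a longer form of the heptamer that no other member and no autosomal peak meeting the rule held. Each is read 5′ to 3′ on the strand that spells the MEX-type heptamer, which is in capitals, and each is named by the position of its summit on X. The window of summit 16682090 lies at chrX:16682081-16682125 on the minus strand, and that of summit 806687 at chrX:806655-806699 on the plus strand. Summit 8036409 has its window at chrX:8036383-8036427 on the minus strand, and summit 6296640 at chrX:6296557-6296601 on the plus strand. Summit 4209207 has its window at chrX:4209248-4209292 and summit 14525890 at chrX:14525882-14525926, both on the minus strand. Summit 1345067 has its window at chrX:1345037-1345081 and summit 13514552 at chrX:13514539-13514583, both on the plus strand. Of the 8, 7 are intergenic, and 6296640 lies in an intron of mom-1.
16682090: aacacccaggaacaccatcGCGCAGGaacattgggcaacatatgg
806687: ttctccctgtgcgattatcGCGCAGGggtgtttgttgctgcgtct
8036409: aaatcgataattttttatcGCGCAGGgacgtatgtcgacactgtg
6296640: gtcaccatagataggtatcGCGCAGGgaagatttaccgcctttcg
4209207: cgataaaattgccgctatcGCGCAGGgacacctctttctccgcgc
14525890: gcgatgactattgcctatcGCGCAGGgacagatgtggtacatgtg
1345067: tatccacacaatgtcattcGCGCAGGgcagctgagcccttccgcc
13514552: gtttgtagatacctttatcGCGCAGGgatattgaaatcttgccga

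X peaks were scarce among the strongest peaks of each replicate and reached their share of the genome only lower down. The X chromosome makes up 17.7% of the length of the 6 chromosomes and 13.7% of protein-coding genes. Among ranks 1 to 100, 2.00% ± 0.995 of peaks lay on X (SD, n = 3 replicates). The share was 5.36% ± 0.778 between ranks 100 and 500, 10.5% ± 3.47 in ranks 501 to 1000 and 13.9% ± 4.67 in ranks 1001 to 2000. From rank 2001 to 5000 it was 18.5% ± 2.32, close to the share of chromosome length, and it stayed between 18.99% and 19.65% in the 3 deeper rank ranges. Replicate 1 had more X peaks than the other replicates between ranks 501 and 2000. Since rank is what the rule used, these shares are a description.

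**Figure D1:**
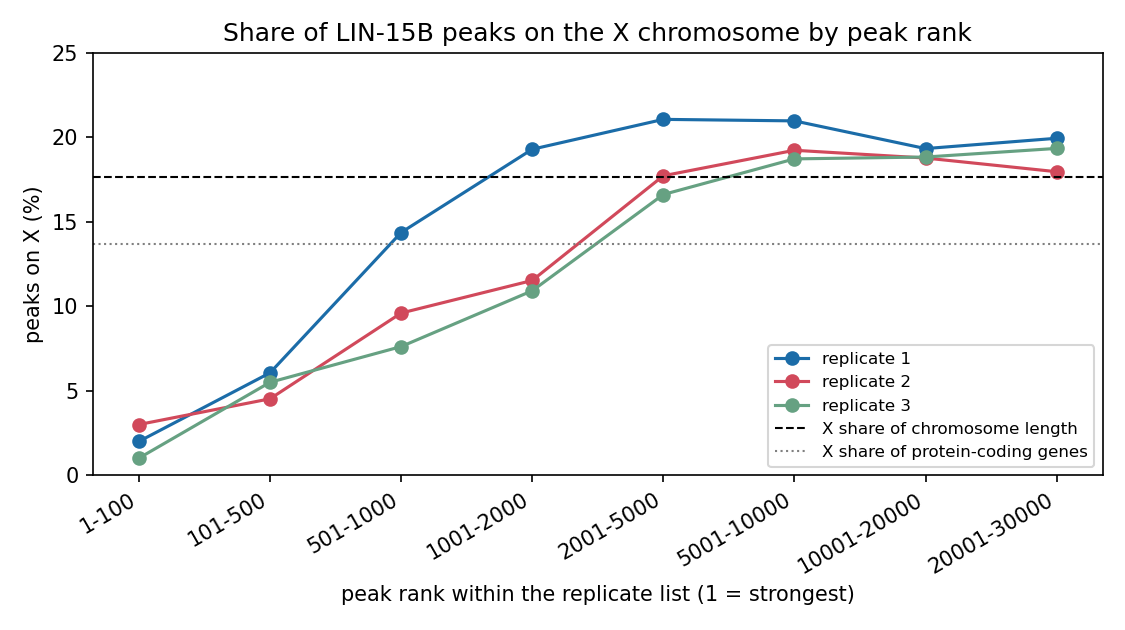
Percent of peaks on the X chromosome (vertical axis) in 8 ranges of peak rank within each replicate list (horizontal axis), one line per replicate; the dashed line is the X share of chromosome length (17.7%) and the dotted line its share of protein-coding genes (13.7%). All 3 lines start at or below 3% in ranks 1 to 100 and lie near the dashed line from rank 2001 on.

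The share of listed peaks that met the rule was lower on X than on any autosome, at 4.62%. Chromosome V had 6.07%, chromosome IV 8.34%, chromosome II 9.11%, chromosome I 11.2% and chromosome III 11.4%. X carried 14.7 members per Mb, against 26.7 per Mb over the autosomes. Along X, split into 5 stretches of equal length, the members numbered 48, 52, 45, 58 and 58 in turn.

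X members also ranked lower and were found in fewer replicates. The median of their middle ranks was 2246, against 1378 for autosomal peaks that met the rule, where the middle rank is that of the replicate placed second of 3 and an unlisted replicate is placed last. Support came from all 3 replicates for 87 X members (33.3%), against 49.7% of autosomal ones. Replicates 2 and 3 alone supported 97 X members (37.16%), against 35.39% of autosomal ones. Replicates 1 and 2 alone supported 43 (16.48%, against 8.246%) and replicates 1 and 3 alone 34 (13.03%, against 6.661%). Replicate 1 listed no overlapping peak at all for 55 of the 261 (21.07%), against 19.08% of autosomal peaks. Support from replicates 2 and 3 alone and absence from replicate 1 were thus nearly as common on autosomes. At the rank limit, the last members inside had a middle rank of 4926, 4954 and 4990, and the first peaks outside had 5025, 5033 and 5055. Of the members, 10 shared a replicate peak in the top 5000 with a neighbouring member, so these are not separate regions in every list. With a rank limit of 1000 there were 57 members, and with ranks 1 to 5000 needed in both remaining replicates there were 121 without replicate 2 and 130 without replicate 3.

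At promoters, the strongest member lay 286 bp upstream of puf-9 (WBGene00004245), which encodes an RNA-binding protein of the Pumilio family. It ranked 12, 23 and 51 in replicates 1, 2 and 3, with peak strengths of 163.5, 110.0 and 148.9 on each list's own scale. The next X member, 307 bp upstream of serp-1.1 (WBGene00010337), ranked 88, 76 and 209. No member other than the one at puf-9 was in the top 50 of any replicate list.

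Other members lay at genes of protein folding and transport in the endoplasmic reticulum, a grouping by known function made after their ranks were seen. The member 22 bp upstream of pdi-6 (WBGene00015168), a protein disulfide isomerase, ranked 111, 150 and 106. That at hsp-3 (WBGene00002007), an Hsp70 chaperone of the endoplasmic reticulum, ranked 165, 57 and 477, the widest range among the first 4. One peak served both trap-2 (WBGene00020216), a subunit of the translocon-associated complex, and ile-2 (WBGene00002071), a lectin of transport to the Golgi, and ranked 123, 176 and 273. All 3 peaks were in the top 500 in every replicate. Further members of this kind were named after their values were seen. They were atf-6, a transcription factor of the stress response of this compartment, ranked 403, 577 and 841, and uggt-1, a glucosyltransferase that senses folding, ranked 2390, 651 and 717. The uggt-1 peak was outside the top 2000 in replicate 1 and inside the top 1000 in the other replicates.

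Some other members lay at genes of mitochondrial proteins, grouped in the same way. The member upstream of asb-2 (WBGene00000207), which encodes subunit b of ATP synthase, ranked 183, 269 and 235. A peak shared by asg-2 (WBGene00000210), another subunit of the same enzyme, and glr-6 (WBGene00001617), a glutamate receptor subunit, ranked 447, 253 and 164. A peak shared by ucr-2.1, a core subunit of respiratory complex III, and nmat-1 ranked 459, 404 and 487. Its summit lay 293 bp upstream of ucr-2.1 and nearer to nmat-1, 93 bp upstream. The peak at sdha-1, the flavoprotein subunit of succinate dehydrogenase, ranked 709, 518 and 640. In the listed family of respiratory chain genes all 3 X-linked genes had a peak at the promoter, against 29 of 56 autosomal genes. Of the 3, ucr-2.2 was the weakest, with no peak in replicate 1 and ranks of 1857 and 974 in replicates 2 and 3.

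The remaining members among the 15 best were of mixed function. Translation was represented by rpl-11.2 (WBGene00004423), a protein of the large ribosomal subunit, whose peak 356 bp upstream ranked 271, 284 and 298. Cell division was represented by klp-13 (WBGene00002224), a kinesin-like motor, ranked 384, 256 and 341. A peak between glit-1 (WBGene00018878) and dnj-14 (WBGene00001032), a DnaJ-type cochaperone, ranked 216, 249 and 122. The sym-4 (WBGene00006369) peak ranked 175, 449 and 250. Peaks at F16B12.6 (WBGene00008882), ZC506.1 (WBGene00013919) and F02C12.3 (WBGene00008517) had ranks between 192 and 473 in every replicate. The only one of the 15 without a protein-coding promoter had its summit at 14708390, 1529 bp upstream of tmem-184. It ranked 349, 296 and 941, and a start of the non-coding RNA F33C8.9 lay within the promoter distance.

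**Figure D2:**
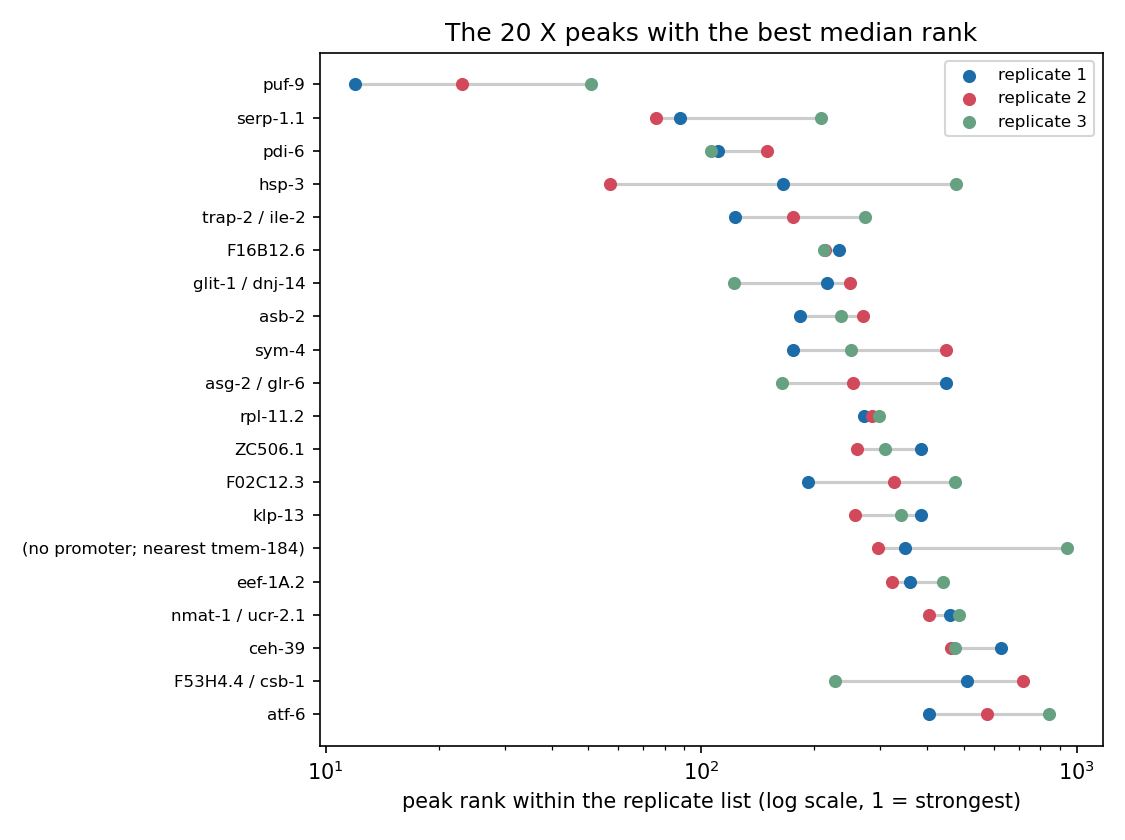
Peak rank in each of the 3 replicate lists (horizontal axis, log scale, 1 is strongest) for the 20 X members with the best middle rank, one row per member, named by the genes whose promoter holds the summit; dots are replicates and the grey line joins the lowest and highest rank. The puf-9 member stands apart at ranks 12, 23 and 51, and the ranks of the other members lie between 57 and 941.

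Counted over genes, 145 of 2731 X-linked protein-coding genes had a member at a promoter, or 5.31%. On the autosomes 1960 of 17242 genes had a peak that met the same rule, or 11.4%. The X share was 2.78% without replicate 2 and 2.67% without replicate 3, where both remaining replicates had to hold the peak. Families by gene symbol are set beside these backgrounds, as counts with no test. Chaperones and folding enzymes had 5 of 8 X-linked genes bound, against 39 of 88 on autosomes, with pdi-6, hsp-3 and dnj-14 the best ranked. Translation factors and tRNA synthetases had 2 of 3, eef-1A.2, an elongation factor, and ife-2, a cap-binding protein, against 32 of 69. The eef-1A.2 peak ranked 359, 322 and 440, while the ife-2 peak was unlisted in replicate 1 and ranked 1472 and 1707 in the others. Vesicle transport and lysosome genes had 10 of 32 on X, against 45 of 129. Among those, vha-12, a subunit of the proton pump of acidic compartments, ranked 762, 707 and 1307. The peaks at the exocyst subunit sec-15 and the coat-assembly gene sec-16A.2 were weak in replicate 1, at ranks 6722 and 10726. They ranked between 720 and 1033 in replicates 2 and 3. The sec-15 peak was shared with C28G1.2, whose start was nearer.

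Some families have few or no genes on X. Ribosomal proteins had 2 X-linked genes, 1 of them bound (rpl-11.2), against 67 of 76 on autosomes. No X-linked gene was found in the lists of the proteasome, of nuclear pore and import or of the mitochondrial ribosome. The autosomal genes bound in these lists were 23 of 33, 33 of 45 and 25 of 70. Transcription and splicing genes had 2 of 5 bound on X, against 51 of 117, with snrp-40.1, a spliceosome component, at ranks 1629, 832 and 810 and taf-3, a subunit of the general factor TFIID, at 6029, 1479 and 1005. Cell cycle and replication genes had 2 of 6, klp-13 and cdk-11.2, against 60 of 120. The cdk-11.2 peak ranked 5198, 1577 and 2082. Of ubiquitin conjugation genes 0 of 12 were bound on X, against 32 of 224 on autosomes.

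Families of neurons, muscle, cuticle and transcription factors are set beside the backgrounds of 5.31% of X-linked and 11.4% of autosomal genes, and on X the shares of the homeobox and muscle lists, 4.69% and 5.88%, were near the 5.31%. Channels, synapse and transmitter receptors had 1 of 79 bound on X and 5 of 181 on autosomes, the X gene being glr-6, whose peak was shared with asg-2. Neuropeptides and their receptors had 1 of 60 and 3 of 169. The X gene was the receptor npr-4, ranked 1093, 2466 and 7827. Homeobox, nuclear receptor and bHLH genes had 3 of 64 and 12 of 354, with ceh-39 far ahead of nhr-1 (28749, 2138 and 3043) and nhr-40, which was unlisted in replicate 1. Collagen and cuticle genes had 1 of 36 and 9 of 178. The 1 on X was dpy-23, which is known to encode a clathrin adaptor subunit rather than a cuticle protein, ranked 582, 1258 and 1541. Muscle genes had 1 of 17 and 2 of 37, the actin gene act-4 at ranks 2905, 1291 and 2469. None of 36 X-linked chemoreceptor genes, 5 vitellogenin genes or 2 microRNA genes was bound, against 6 of 1335, 0 of 1 and 0 of 5 on autosomes.

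Of the 6 X-linked genes of sex determination and dosage compensation in the list, 1 had a member, ceh-39 (WBGene00000460), against 4 of 15 autosomal genes. It encodes a ONECUT homeodomain protein known as one of the X signals that report the number of X chromosomes. Its peak, 233 bp upstream, ranked 627, 463 and 475. Other X signal genes, fox-1 and sex-1, and their target xol-1 had no peak at the promoter in any of the replicate lists. At sdc-2, which is needed to bring the dosage compensation complex to X, the best promoter peaks ranked 2303, 5624 and 4057, but no series-wide peak that met the rule had its summit there. At sdc-1 replicate 1 listed none, and replicates 2 and 3 had ranks of 11226 and 3392.

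Strength and place went together among the members. Of 18 members with a middle rank of 1 to 500, 17 lay in promoters. The count was 27 of 39 at ranks 501 to 1000, 40 of 62 at 1001 to 2000 and 48 of 142 at 2001 to 5000. In all, 50.6% of X members lay in promoters, against 67.8% of autosomal peaks that met the rule. These totals mix unlike ranks, since 142 of 261 X members but 759 of 2207 autosomal peaks were at ranks 2001 to 5000. Within the same ranges, strongest first, the X shares were 94.4%, 69.2%, 64.5% and 33.8%. Those of autosomal peaks were 90.8%, 77.3%, 69.6% and 47.8%. The rest of the X members were intergenic (80), intronic (28) or exonic (21). The median promoter summit on X was 185 bp upstream of its start, against 155 bp on autosomes.

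**Figure D3:**
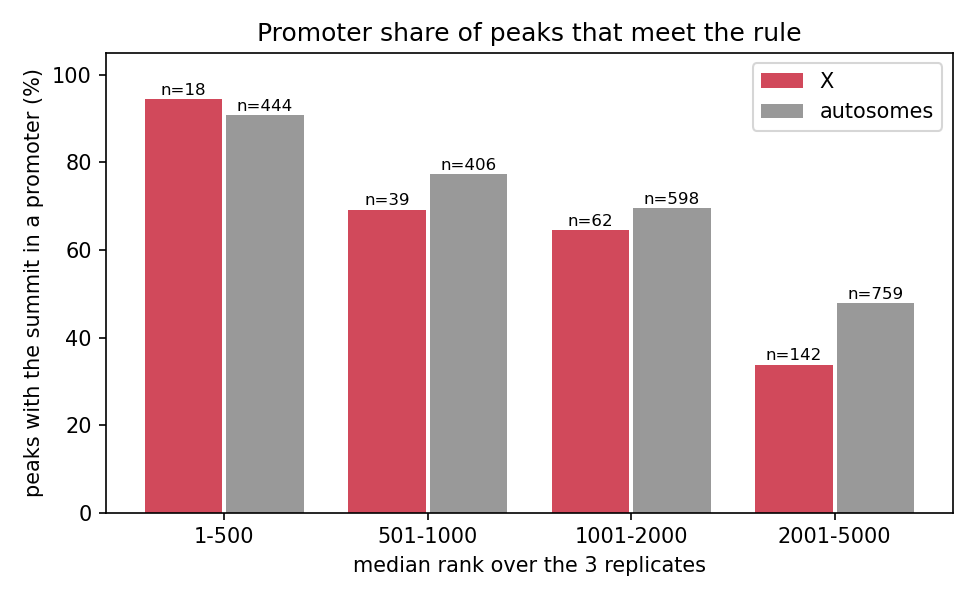
Percent of peaks that meet the rule with the summit in a promoter (vertical axis, bars from 0), for X members (left bar) and autosomal peaks (right bar) in 4 ranges of middle rank over the 3 replicates; n is the number of peaks behind each bar. The X share is 94.4% in ranks 1 to 500 and 33.8% in ranks 2001 to 5000, against 90.8% and 47.8% on autosomes.

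The same properties were then measured in each replicate's own 1000 strongest peaks, X against autosomes, which uses no overlap between lists. These held 97, 69 and 61 X peaks in replicates 1, 2 and 3. Where the lists hold the same site, the replicates share its genome sequence and annotation. Their values for place and sequence are therefore not independent, and their SD does not measure independent repeats. With 3 replicates the smallest p of the exact two-sided sign-flip permutation test is 0.25, so no difference could pass 0.05. The promoter share was 53.6%, 72.5% and 82.0% on X in replicates 1, 2 and 3, against 74.1%, 81.4% and 87.7% on autosomes. It was lower on X in 3 of 3 replicates, by a mean of -11.7 points ± 7.78 (SD, n = 3; exact permutation p = 0.25, 0.313 adjusted over 5 measures), or -7.34 points without replicate 1. In the 500 strongest peaks the direction was not kept, with a mean difference of 0.965 points.

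Fewer X promoter members than autosomal promoter peaks were divergent, that is, shared by genes transcribed away from each other. Of the 132 promoter members 14 were divergent (10.6%), against 32.5% of 1496 autosomal promoter peaks. The divergent share of all X-linked and all autosomal promoters was not counted. Whether the difference holds for X promoters in general was thus not tested. Over each replicate's 1000 strongest peaks, 6.19%, 13.04% and 14.75% of X peaks lay in divergent promoters in replicates 1, 2 and 3, against 28.2%, 31% and 33.9% of autosomal peaks. The ranges did not overlap, and the mean difference was -19.7 points ± 2.09 (SD, n = 3; exact permutation p = 0.25, adjusted 0.313).

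X peaks were richer in G and C than autosomal ones but had a lower ratio of observed to expected CpG. The expected CpG rises with GC content, and the number of CpG per window was not compared. Values by replicate come in part from the same sites, and so from the same sequence. In windows reaching 100 bp to either side of the summits of each replicate's own 1000 strongest peaks, GC content was 45.5%, 48.1% and 46.1% on X in replicates 1, 2 and 3, against 42.2%, 42.0% and 39.7% on autosomes. The difference was 5.26 points ± 1.73 (SD, n = 3; exact permutation p = 0.25, adjusted 0.313). It was 8.09 points in the 500 strongest peaks and 3.03 points in the 2000 strongest. Observed CpG over expected CpG gave ratios of 1.005, 1.075 and 1.134 on X, against 1.384, 1.446 and 1.505 on autosomes. It differed by -0.37 ± 0.0048, nearly the same amount in each replicate (SD, n = 3; exact permutation p = 0.25, adjusted 0.313). All promoters of each kind, taken as windows of that size centred 185 bp upstream of the start, had 35.8% GC and a CpG ratio of 0.958 on X, against 34.0% and 1.07 on autosomes. Among promoter members alone the mean GC content was 46.2% and the CpG ratio 1.13, against 39.6% and 1.47 for autosomal promoter peaks.

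**Figure D4:**
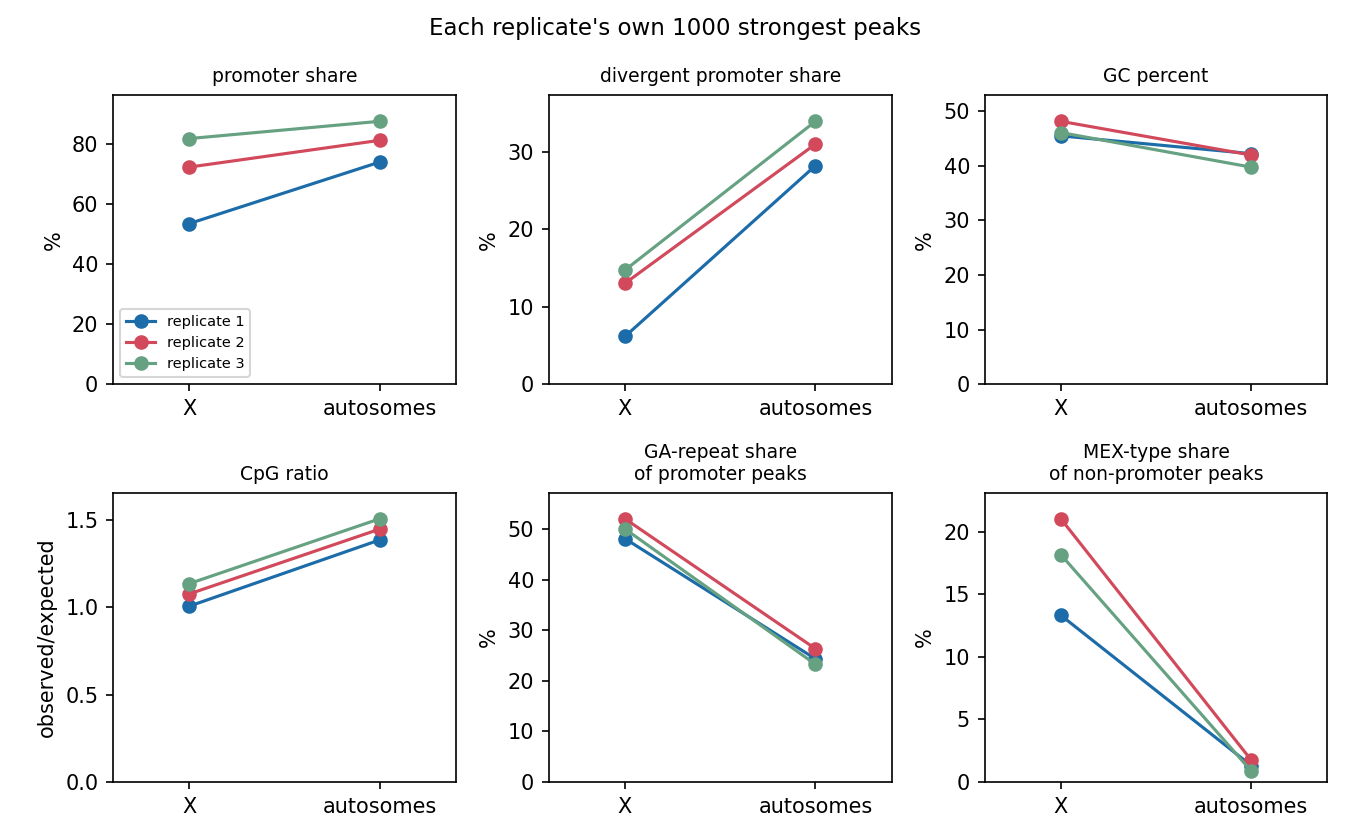
Properties of each replicate's own 1000 strongest peaks, X on the left and autosomes on the right of each panel, one line per replicate; vertical axes are percent of peaks or windows, or the observed to expected CpG ratio. The lines of the divergent promoter share, GC content, the CpG ratio and both motif shares run in one direction in all 3 replicates with no overlap between X and autosomes, whereas the promoter shares overlap.

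Promoter members differed from autosomal promoter peaks in the short motifs near the summit, searched on both strands in the same windows. Their mean GC content was also higher, 46.2% against 39.6%. Motif shares were not adjusted for GC content, and whether they follow it was not tested. The GA-repeat hexamer GAGAGA was found in 64 of 132 X promoter members (48.5%), against 27.1% of autosomal promoter peaks. It was in 17.1% of all X promoters and 14.2% of all autosomal ones. The GC-rich hexamer GAGCGC was in 36.4% of X promoter members, against 24.3% on autosomes, and in 4.32% and 3.89% of all promoters on X and on autosomes. Letters like the cell cycle homology region (CHR), a promoter element known to be bound by the DREAM complex, whose members include other synMuv B proteins, went the other way. This CHR-like motif, spelled TTCGAA or else TTTGAA, was in 26.5% of X promoter members and 58.4% of autosomal promoter peaks, with 50.9% and 57.4% of all promoters. The E2F-like motif was read as any of 4 spellings that begin with TT and end with CGC, with C or G at each of the 2 letters between. It was in 16.7% of X promoter members and 21.9% of autosomal promoter peaks, and in 6.12% and 7.11% of all promoters. The GATA-like motif was read as GATA with A or T before it and A or G after it. It was in 22.7% and 24.2%, with 42.8% and 40.1% of all promoters. The E-box CACGTG was in 3.03% and 4.75%, with 3.37% and 3.55% of all promoters.

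In the replicates' own 1000 strongest peaks, GAGAGA was in 48.1%, 52% and 50% of X promoter peaks in replicates 1, 2 and 3, against 24.3%, 26.3% and 23.2% of autosomal ones, a difference of 25.4 points ± 1.52 (SD, n = 3; exact permutation p = 0.25). CHR-like letters were in 21.2%, 22% and 34%, against 57.5%, 60.5% and 60.6%, a difference of -33.8 points ± 6.34 (SD, n = 3; exact permutation p = 0.25). Neither pair of ranges overlapped. These motif shares by replicate were added after the shares over members had been seen. E2F-like letters, over all X and all autosomal peaks, were lower on X in 2 of 3 replicates, with a mean difference of -3.77 points ± 4.15 (SD, n = 3; exact permutation p = 0.5, adjusted 0.5), within the spread between replicates. That difference was -2.13 points without replicate 1 and -6.10 points without replicate 3.

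**Figure D5:**
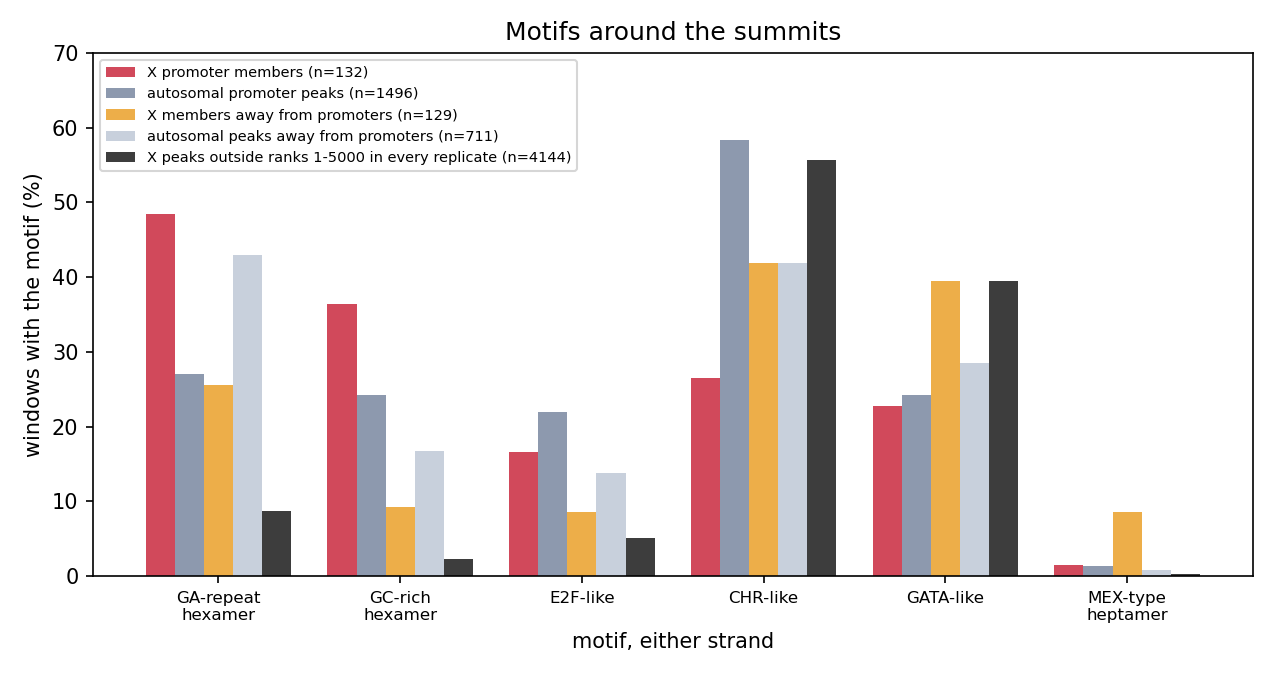
Percent of windows (100 bp to either side of the summit) that hold each of 6 motifs on either strand (vertical axis, bars from 0), in X promoter members, autosomal promoter peaks, X members away from promoters, autosomal peaks away from promoters and X peaks outside ranks 1 to 5000 in every replicate. The GA-repeat hexamer reaches 48.5% in X promoter members, and the MEX-type heptamer stands at 8.53% in X members away from promoters and at 1.52% or less in the other classes.

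Members away from promoters had another makeup. Their median distance to the nearest protein-coding start was 1699 bp, against 1321 bp for autosomal peaks away from promoters, and 8 of the 129 were over 5000 bp from one. Their GC content was 40.6%, against 43.0%, and their CpG ratio was 0.971, against 1.09. GAGAGA was in 25.6%, against 43.0%, the reverse of the order at promoters. A tRNA gene start was within the promoter distance of 12 of the 129 (9.30%), against 31 of 711 (4.36%). The other non-coding classes counted went the other way. For genes of the class ncRNA the shares were 14.7% against 17.2%, and for small nucleolar RNA genes 0.775% against 5.06%. For small nuclear RNA genes they were 0% against 1.69%, and for microRNA genes 0.775% against 1.125%. How often a tRNA gene start lies that near to other listed peaks, on X or on autosomes, was not counted. Whether the tRNA difference is particular to the members or follows the number of tRNA genes on X was thus not tested. The 3 with the best middle rank had summits at 14708390, described above, at 16682090, ranked 421, 624 and 1535, and at 1627170, ranked 658, 1410 and 688.

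The MEX-type heptamer GCGCAGG was in 11 of these 129 X members (8.53%), against 6 of 711 autosomal peaks away from promoters (0.844%). It was in 2 of 132 X promoter members (1.52%) and in 0.281% of X peaks away from promoters that were outside ranks 1 to 5000 in every replicate. Of all X promoters 0.586% held it. The share among X members was 15.5% without replicate 1 and 13.2% without replicate 2. There were 304 7-mers in at least 10 windows of X members away from promoters. Among them the heptamer had the second highest ratio of X to autosomal shares, 10.1. The first, CCCTGCG with 11.9, overlaps CCTGCGC, the reverse complement of the heptamer, by 6 letters. The 7-mers were kept by their count in the same X windows that gave the ratio. This order is therefore a description and adds no support to the count of 11. In the replicates' own 1000 strongest peaks the heptamer was in 13.3%, 21.1% and 18.2% of X peaks away from promoters. The shares of autosomal ones were 1.30%, 1.73% and 0.870%. The number of X peaks behind these shares was 45, 19 and 11, so few windows carry them. This comparison was added after the share over members had been seen. It reads in part the same sites as the members counted above, so it is no separate support for them. The difference was 16.2 points ± 3.76, in the same direction in 3 of 3 replicates (SD, n = 3; exact permutation p = 0.25). In the 2000 strongest peaks it was smaller, at 6.41 points ± 4.27 (SD, n = 3).

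The 11 members were spread unevenly over the ranges of middle rank. Of members away from promoters, 0 of 1 at ranks 1 to 500 and 5 of 12 at 501 to 1000 held the heptamer. The count was 2 of 22 at ranks 1001 to 2000 and 4 of 94 at 2001 to 5000. The member at 806687 ranked 822, 685 and 1026, and that at 6296640 ranked 1012, 906 and 921, the most even pair. Summit 8036409, 4904 bp upstream of xol-1, ranked 401, 839 and 1950. Summit 4209207 ranked 583, 1601 and 943, and summit 14525890 ranked 572, 2146 and 1751. Replicate 1 thus gave the best rank at 4 of the members printed above, 16682090, 8036409, 4209207 and 14525890. It also did so at 1345067 (746, 2075 and 2052), but placed 13514552 at 8027, against ranks of 2667 and 932 in replicates 2 and 3. The remaining 3 members with the heptamer, at 4395628, 12363043 and 727821, had no peak in replicate 1 and ranks between 1447 and 3265 in the others. At 12363043 the heptamer stood on the summit itself, and at 8036409 a copy was centred 4 bp from it.

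Longer forms of the heptamer, chosen after the windows were seen and so given no test, separated X from the autosomes further. TCGCGCAGG was in 8 X members, the 8 printed above, and in 0 of 2207 autosomal peaks that met the rule, which allows a share of up to 0.136%. It was in 0 of 132 X promoter members, which allows up to 2.27%. The genome held 48 copies on X (2.71 per Mb) and 68 on the autosomes (0.824 per Mb). Of the X copies 10 lay within 100 bp of a member summit (20.8%), and of the autosomal copies 0 lay that near to a peak that met the rule. The bare heptamer, by contrast, was about as dense on X (20.2 copies per Mb) as on the autosomes (19.9 per Mb), and 17 of 357 X copies were that near, against 29 of 1642. TATCGCGCAGG was in 6 members, and of its 10 copies on X 6 lay within 100 bp of a member summit, against 0 of 2 on the autosomes.

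Each replicate list was also read at every copy of TCGCGCAGG, whether or not a series-wide peak was there. A peak ranked 1 to 2000 covered 10, 8 and 8 of the 48 X copies in replicates 1, 2 and 3, and 0 of the 68 autosomal copies in each. Any listed peak covered 14, 16 and 10 X copies, with median ranks of 784, 1838 and 1288. On the autosomes 9, 9 and 5 copies were covered, with median ranks of 18833, 22871 and 14135, deep in the lists. At least 32 of the 48 X copies were thus without a listed peak in each replicate. Whether other chromatin features mark the copies that were covered was not tested.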

How the data were processed

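ChIP-seq peak lists of 3 replicates and 1 series-wide list, each of 30000 peaks on the ce11 assembly, were used. Per the deposited file records, the authors made them as peaks and background against a control file, the series-wide list from the pooled alignments; which aligner and caller they ran is not given in the sources used here. Peak strength is a signal on each list's own scale, set by the authors' peak caller, so peaks were ranked within lists. The deposited q score and summit position (other values) were used as given. The lists hold no read counts, so depth is unknown, and no sequencing interval is given.

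Overlap was 1 bp or more. Promoters, motifs, GC content and CpG ratio were taken from Ensembl 115 and WBcel235, in windows of 100 bp to either side of the summit, with Python 3.11.15, numpy 2.4.6 and pandas 2.3.3, and tested on simulated data. Shares over replicates were compared by an exact sign-flip permutation test with Benjamini-Hochberg adjustment. A share of 0 is given with the limit that 3 counts allow, for counting error only. Members and the 20 gene lists were chosen with earlier results of these data known. Named genes were those at the 15 best members, up to 3 per list and the X-linked sex determination genes, unless said otherwise. Alternatives varied rank limits, replicates, overlap, promoter and window sizes, and the ce10 lists.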

Additional observations from a re-analysis of the deposited data

How the results depend on the processing

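No paired analysis was possible because the series holds 1 group, so no second group shares its replicate numbers. X and autosomes were compared within each replicate instead. Of 88 alternative values of counts and shares, 43 moved by less than the spread between replicates (for member counts, less than 1.5 times). The other 45 moved further. The spread was the SD over the replicates' own X peaks, mostly those in ranks 1 to 1000, and not over members. For the percent of X-linked genes bound it was only 0.0211 points, and every alternative of that result moved further. Of 44 alternative values of X minus autosome differences, 43 kept their direction, though not always their size, and 1 reversed. Member number followed the rank limit: 57, 119 and 550 members with limits of 1000, 2000 and 10000, which are 1.01%, 2.11% and 9.74% of listed X peaks. All 3 replicates left 87 (1.54%), a q score of 2 or more 113, and leaving out 1 replicate 121 to 184, the lowest without replicate 2 and 130 without replicate 3. The ce10 lists gave 268 with the transgene locus kept, as did ce11.

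At limits of 1000, 2000 and 10000 the promoter share was 77.2%, 70.6% and 34.9%, and 65.5% with all 3 replicates. It was 35.2% with promoters of 250 bp upstream and 100 bp downstream, and 60.5% when starts of all gene biotypes were counted. X-linked genes bound were 1.90%, 3.41% and 7.51% at those limits, 2.38% with all 3 replicates and 2.67% to 4.61% with 1 replicate left out. They were 3.52% with short promoters, 6.34% with 1000 bp promoters, 4.80% by the nearest start and 3.62% over all biotypes. GC content was 47.1%, 46.3% and 40.2% at those limits, 47.0% with all 3 replicates, 44.5% to 45.25% with 1 left out, 46.0% in windows of 50 bp and 41.3% in windows of 150 bp to either side, and 46.2% in promoter members. The CpG ratio was 1.122 at the limit of 2000 and 1.13 in promoter members. E2F-like letters were in 22.8% at the limit of 1000 and 20.7% with all 3 replicates.

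The GCGCAGG share of X members away from promoters, an alternative set chosen after seeing the data, was 38.5%, 20% and 4.19% at those limits, 23.3% with all 3 replicates and 10.8% to 15.5% with 1 left out, the highest without replicate 1. The X minus autosome promoter share reversed to 0.965 points in the 500 strongest peaks; the cause was not tested. Its GCGCAGG counterpart gave no value there, since replicate 3 had no X peak away from promoters. Fewer replicates or a lower limit keep fewer members by construction.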

Other observations

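X-linked genes whose symbol carries a copy number (such as rpl-11.2) were bound more often than the rest, an observation made after the values were seen and given no test. Of 53 such genes on X 12 had a member at the promoter (22.6%), against 4.97% of the other X-linked genes. On autosomes the shares were 46 of 238 (19.3%) and 11.3%. At several the other copy was autosomal with no peak that met the rule. The peak of rpl-11.2 had a middle rank of 284, against 25024 at rpl-11.1 on chromosome V. The peak of serp-1.1 had a middle rank of 88, and serp-1.2 on chromosome IV had none in 2 lists or more. The same held for snrp-40.1 (832) against snrp-40.2 on chromosome I, and for cdk-11.2 (2082) against cdk-11.1 on chromosome II. Both copies were bound for eef-1A.2 (359) and eef-1A.1 on chromosome III (115), for sec-16A.2 (1033) and sec-16A.1 on chromosome III (1467), and for atg-16.1 (2550) and atg-16.2 on chromosome II (1637). Near-identical copies can share reads, and how the authors treated such reads is not given in the sources used here.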
